A study of Mus musculus and Homo sapiens
Mus musculus with 12 samples.

Results

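The 9 genes described here encode the subunits of 2 families of glutamate receptor. Gria1, Gria2, Gria3 and Gria4 encode the AMPA receptor subunits, and Grik1, Grik2, Grik3, Grik4 and Grik5 the kainate receptor subunits. They were chosen by symbol, with earlier results of these data known. All 9 were found among the 34496 genes with at least 1 count in the mouse brain libraries. The libraries were made with snHH-seq, a droplet method that copies the total RNA of fixed single nuclei with random primers and counts cDNA molecules as unique fragment identifiers (UFIs). There were 7 libraries in 4 groups: 2 of frozen brain without preindex, 2 of frozen brain with preindex, 2 of fresh brain without preindex and 1 of fresh brain with preindex. Preindex means that the reverse transcription primer carried a first nuclear barcode (No_index and Index in the titles). All groups share the same kind of animal, wild-type male C57BL/6J mice of the same age range, and the same fixation of nuclei. The paper's methods describe grinding of tissue in liquid nitrogen, while its results name liquid nitrogen or scissors, without a group. How many mice stand behind each library was not given in the sources used here, so every p-value measures the spread between these libraries, which may be technical.

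AMPA receptors carry most fast excitatory transmission in the brain. They are tetramers of GluA1 to GluA4, and the edited GluA2 subunit, encoded by Gria2, keeps calcium out of the channel. Kainate receptors are also tetramers, in which GluK1, GluK2 and GluK3 (Grik1, Grik2, Grik3) can form channels by themselves while GluK4 and GluK5 (Grik4, Grik5) bind glutamate with high affinity and need one of the other three as a partner. Kainate receptors are best known at hippocampal mossy fibre synapses and in interneurons.

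Each UFI was given to 1 gene only, so the resemblance of the 9 transcripts bears on every value. The stretch below lies in the coding sequence of the pore-forming region and is among the best conserved parts of the families. It is shown because the subunits resemble each other closely there. It was read from GENCODE M21 transcripts (GRCm38), 5′ to 3′ in the sense of the mRNA. Capitals mark the 10 of its 27 bases that are not the same in all 9 genes.
Gria1: tcAtaCacAgcCaaCCtGgcTgcCttC
Gria2: tcCtaCacGgcTaaCTtAgcTgcCttC
Gria3: tcCtaCacTgcAaaCCtTgcTgcTttC
Gria4: tcCtaCacTgcTaaTCtGgcTgcAttC
Grik1: tcCtaCacTgcCaaCCtGgcTgcCttC
Grik2: tcGtaTacCgcTaaCCtAgcCgcCttT
Grik3: tcCtaCacGgcCaaCCtGgcTgcCttC
Grik4: tcCtaCacGgcCaaCCtGgcAgcCttC
Grik5: tcCtaCacGgcCaaCCtGgcTgcCttC
The other 17 bases were shared by all. Grik3 and Grik5 held the identical stretch, and the pairs farthest apart differed at 8 of its bases. Over the whole transcripts, the longest run that any of the 36 pairs of subunits had in common was 59 nucleotides, between Gria3 and Gria4. Reads were counted over the whole gene, introns included.

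The genes are long and lie on 8 chromosomes (GRCm38). Gria1 spans 318.858 kb of chromosome 11 (57011387 to 57330244), Gria2 121.386 kb of chromosome 3 (80681450 to 80802835), Gria3 277.748 kb of chromosome X (41400854 to 41678601) and Gria4 378.339 kb of chromosome 9 (4417896 to 4796234). Grik1 spans 394.366 kb of chromosome 16 (87895900 to 88290265), Grik2 693.934 kb of chromosome 10 (49094833 to 49788766), Grik3 223.474 kb of chromosome 4 (125490700 to 125714173), Grik4 426.359 kb of chromosome 9 (42518135 to 42944493) and Grik5 62.498 kb of chromosome 7 (25009849 to 25072346). No annotated gene overlapped any of them on the other strand, and the small genes annotated inside them on the same strand had no counts.

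The 7 libraries held 11198 nuclei and between 8605214 and 42439731 UFIs each, with medians of 9011.5 to 27543 UFIs per nucleus, and the 4 AMPA subunits took 703829 UFIs, 38.9 of every 10000, and the 5 kainate subunits 471697, or 26.1 of every 10000. Before any grouping of nuclei the spread between libraries differed between subunits. Grik1 ran from 2.75 to 3.95 UFIs per 10000 (mean 3.21 ± 0.392 SD) and Grik3 from 3.26 to 4.39 (3.84 ± 0.388). Gria1 had the highest count, 15.3 to 19.4 UFIs per 10000 over the 7 libraries (mean 16.7 ± 1.43 SD), and Grik5 the lowest, 1.67 to 1.98 (1.84 ± 0.0926). A longer gene can yield more fragments, so genes were ranked against each other per 100 kb of gene span. That counts rise in proportion to span was assumed and not tested, and the scaling raises the shortest genes, Grik5 and Gria2, most. On that scale Gria2 was highest (6.38 ± 0.316 UFIs per 10000 per 100 kb), followed by Gria1 (5.23 ± 0.450), Grik5 (2.94 ± 0.148), Gria3 (2.29 ± 0.153), Gria4 (2.14 ± 0.136), Grik2 (1.99 ± 0.120) and Grik3 (1.72 ± 0.174), with Grik1 (0.814 ± 0.0993) and Grik4 (0.813 ± 0.0746) lowest. Fewer cells of a type and less RNA per cell cannot be told apart in such whole-library values.

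Nuclei were therefore grouped into 25 clusters, with the 9 subunits and 35 companion genes left out of the clustering, and 18 clusters were given a name from marker genes. Nuclei in neuron-like clusters numbered 9865. The brain label did not hold for every nucleus. In 481 kidney tubule-like nuclei the leading genes were Slc34a1, Pkhd1 and Lrp2, and these nuclei came only from the 2 frozen libraries with preindex, where it made up 11.7% and 10.7% of nuclei. An unnamed cluster of 91 nuclei led by Cps1, Cyp2b9 and Runx1 mixed microglial and liver genes. Cerebellar granule neuron-like nuclei (264) were found in none of the 3 libraries with preindex. A neuron-like cluster led by Ano1, Prdm16 and Ano2 (194 nuclei) and one led by Syt9, Ano1 and Gm29478 (33 nuclei) were absent from frozen brain without preindex. Levels by class are UFIs per 10000 in each library with at least 10 nuclei of the class. They describe these clusters, and no test was made of one class against another.

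**Figure D1:**
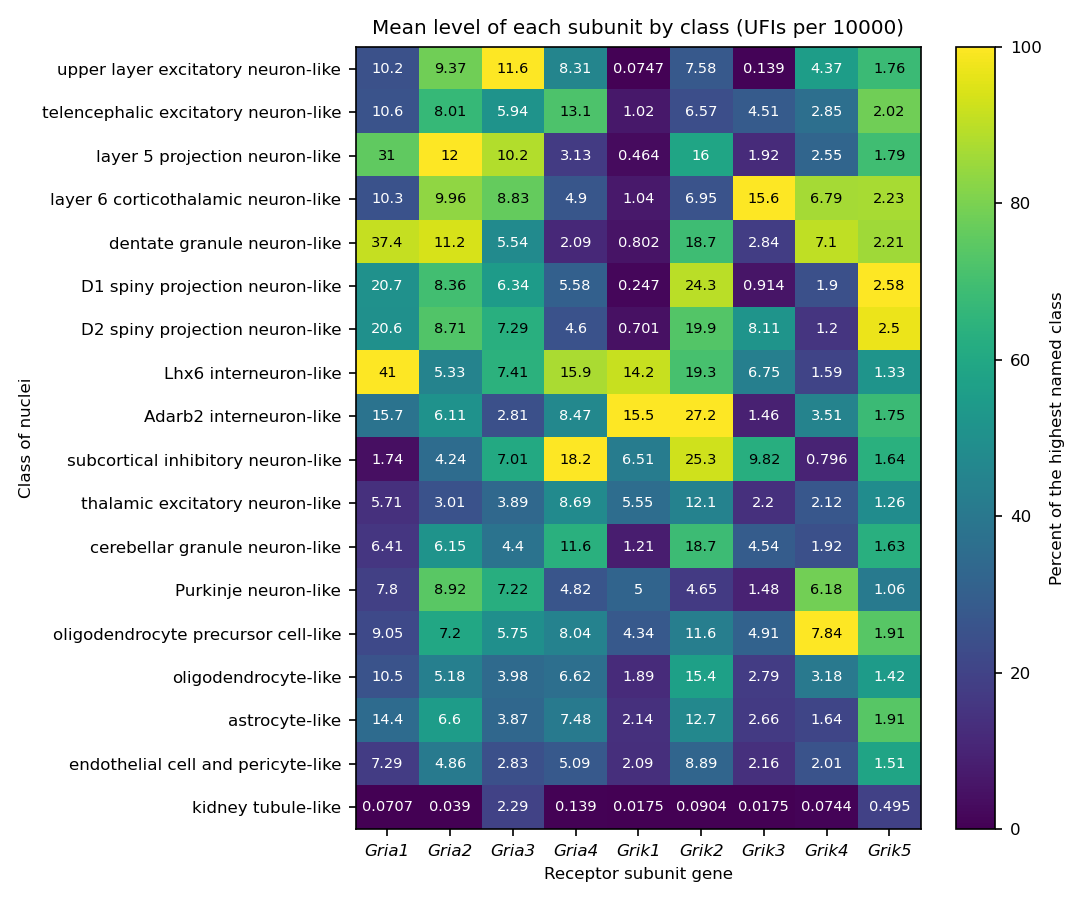
Mean level of each subunit (columns) in each named class of nuclei (rows), printed in UFIs per 10000 and coloured as percent of the highest named class of that gene. The genes did not all peak in the same class: Gria1 was highest in Lhx6 interneuron-like nuclei (41.0) and Grik3 in layer 6 corticothalamic neuron-like nuclei (15.6). Grik1 (15.5) and Grik2 (27.2) were both highest in Adarb2 interneuron-like nuclei. The kidney tubule-like row is near 0 except for Gria3 (2.29) and Grik5 (0.495).

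Gria1, which encodes the GluA1 subunit, was most abundant in Lhx6 interneurons and the dentate gyrus. In Lhx6 interneuron-like nuclei (627 nuclei), the class that holds parvalbumin and somatostatin cells, its level ran from 32.7 to 51.8 UFIs per 10000 over 7 libraries, with a median of 42.2. Dentate granule neuron-like nuclei (421) had 32.9 to 41.7, with a median of 37.6, and layer 5 projection neuron-like nuclei (553) had 26.1 to 37.0, with a median of 29.3. In both, every library with preindex was above every one without. Dentate levels were 41.1, 41.6 and 41.7 with preindex and 32.9 to 37.6 without. Layer 5 levels were 35.2, 37.0 and 35.6 with preindex and 26.1 to 29.3 without. In the Lhx6 class the libraries with and without preindex overlapped. Primer was not tested in these classes. The share of all genes whose libraries lie apart by primer there was not counted, so the gaps are no result about Gria1. The Lhx6 and dentate classes overlapped, and the Lhx6 class was the higher one in 5 of 7 libraries. Between them lay the unnamed neuron-like cluster led by Ano1, Prdm16 and Ano2 (39.6 ± 8.22, 5 libraries). Spiny projection neurons, the output cells of the striatum, followed with 20.7 ± 1.34 in the D1 class and 20.6 ± 1.81 in the D2 class (SD, n = 7 libraries), which did not differ beyond their spread. Adarb2 interneuron-like nuclei had 15.7 ± 4.43, 2.62-fold less than the Lhx6 class with ranges apart. Upper layer (10.2 ± 1.24) and layer 6 (10.3 ± 1.42) cortical neurons were also alike. Thalamic excitatory neuron-like nuclei had 5.71 ± 1.30, and the lowest neuronal level was 1.74 ± 0.812 in 52 subcortical inhibitory neuron-like nuclei (2 libraries).

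At a finer clustering with 40 clusters, the layer 5 cluster split and gave hippocampal pyramidal neuron-like nuclei (307) their own cluster. There Gria1 reached 34.1 to 54.2 UFIs per 10000 with a median of 46.9, above the dentate class in 7 of 7 libraries although the ranges overlapped. Somatostatin interneuron-like nuclei (243) had 48.4 ± 10.2 (6 libraries), against 32.7 ± 5.34 in Lhx6 interneuron-like nuclei without somatostatin, and were higher in 6 of 6 libraries with both.

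Gria2, the gene of the GluA2 subunit, was highest in some excitatory classes and in the cluster led by Ano1, Prdm16 and Ano2 (13.1 ± 1.37, 5 libraries). Not all excitatory classes were high: the telencephalic one had 8.01 ± 0.539, beside 8.71 ± 0.481 in the D2 and 8.36 ± 0.604 in the D1 class. Layer 5 projection neuron-like nuclei had 10.8 to 13.5 UFIs per 10000 (median 11.8), dentate granule neuron-like nuclei 10.4 to 12.02 (median 11.05), and layer 6 corticothalamic and upper layer neuron-like nuclei 9.96 ± 0.507 and 9.37 ± 0.553. Neighbours in this order overlapped. The layer 5 cluster also holds the nuclei that the finer clustering named hippocampal pyramidal neuron-like, so its value is not that of layer 5 alone. Interneurons lay lower, at 5.33 ± 0.417 in the Lhx6 class, 4.60 to 5.76 over the libraries, which did not overlap with the upper layer class and was below it in 7 of 7 libraries. Thalamic neuron-like nuclei were the lowest neurons of all named classes (3.01 ± 0.489), 3.73-fold below dentate granule neuron-like nuclei. With the finer clusters, hippocampal pyramidal neuron-like nuclei took the first place with 13.7 ± 0.652, and their range lay above that of the dentate class (11.2 ± 0.509).

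Gria3, which encodes GluA3, was highest in the upper layer and layer 5 classes among the 25 clusters. Upper layer excitatory neuron-like nuclei (730) had 10.3 to 14.04 UFIs per 10000 with a median of 11.3, and layer 5 projection neuron-like nuclei 9.14 to 11.03 with a median of 10.5. The ranges overlapped, but the upper layer class was higher in 7 of 7 libraries. The layer 5 cluster also holds the nuclei that the finer clustering named hippocampal pyramidal neuron-like. With 20 principal components, Purkinje neuron-like nuclei had the highest mean of the named classes (10.8 ± 2.81). Adarb2 interneuron-like nuclei, a class marked by Vip and Ndnf, had the lowest level among named neurons, 2.81 ± 0.861, and the Lhx6 class 7.41 ± 0.739, which is 2.64-fold more with ranges apart. Gria3 was also found in kidney tubule-like nuclei, at 2.18 and 2.40 UFIs per 10000 in the 2 libraries that held them.

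Among the 25 clusters Gria4, the gene of GluA4, was highest in an unnamed neuron-like cluster led by Nr4a2, Ntng2 and Oprk1 (97 nuclei), with 21.9, 22.4, 24.3 and 25.9 UFIs per 10000 in its 4 libraries. Subcortical inhibitory neuron-like nuclei followed with 18.8 and 17.6 in 2 libraries, then Lhx6 interneuron-like nuclei with 14.1 to 18.2 (median 15.8) and telencephalic excitatory neuron-like nuclei with 11.8 to 14.95 (median 12.8). Dentate granule neuron-like nuclei, near the top for Gria1 and Gria2, were the lowest of the named neuron classes for Gria4 with 2.09 ± 0.562. At the finer clustering a class named only interneuron-like had the highest mean of the named classes, 26.8 ± 5.10. Between the finer classes with and without somatostatin the order was the reverse of that for Gria1. Gria4 was 17.9 ± 1.69 in Lhx6 interneuron-like nuclei without somatostatin and 11.4 ± 1.79 in somatostatin interneuron-like nuclei, with ranges apart.

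Grik1, which encodes GluK1, was highest in interneurons. Adarb2 interneuron-like nuclei (334) had 10.5 to 23.2 UFIs per 10000 over 7 libraries (median 13.6) and Lhx6 interneuron-like nuclei 10.5 to 18.4 (median 14.1). The pair overlapped. Next came subcortical inhibitory neuron-like nuclei with 8.04 and 4.97 in 2 libraries and thalamic neuron-like nuclei with 5.55 ± 1.72. Upper layer excitatory neuron-like nuclei had 0.0747 ± 0.0485, which lay below the Lhx6 class in 7 of 7 libraries with ranges apart. The Purkinje neuron-like cluster (153 nuclei) is not uniform: its 5 libraries ran from 0 to 12.6 for Grik1 and from 1.18 to 35.5 for the companion gene Shisa6. At the finer clustering, 34 Purkinje neuron-like nuclei stood alone with 14.5 and 19.0 in 2 libraries.

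**Figure D2:**
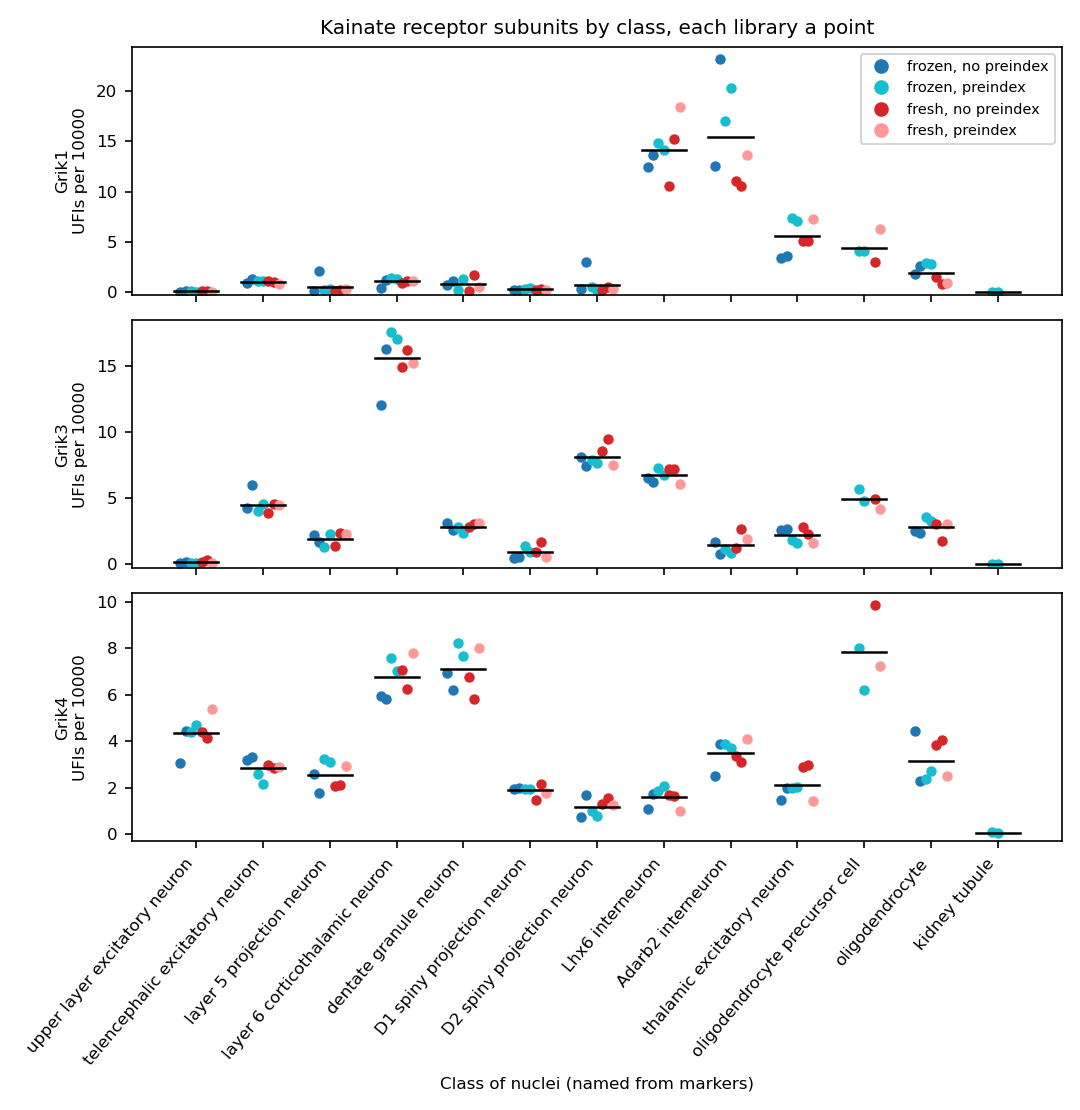
Level of Grik1, Grik3 and Grik4 (UFIs per 10000, y axes) in 13 named classes of nuclei (x axis), with 1 point per library coloured by group and a bar at the mean over libraries. Grik1 stands out in the interneuron classes (means 14.2 and 15.5) and Grik3 in layer 6 corticothalamic neuron-like nuclei (15.6). Grik4 is high in oligodendrocyte precursor cell-like nuclei, dentate granule neuron-like nuclei and layer 6 (7.84, 7.10 and 6.79). Its mean in Purkinje neuron-like nuclei was 6.18. Libraries of all 4 groups mix within most classes.

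Grik2, the gene of GluK2 and the longest of the 9, was found in every neuron class. Adarb2 interneuron-like nuclei had 22.0 to 31.7 UFIs per 10000 (median 28.4) and D1 spiny projection neuron-like nuclei 18.7 to 28.9 (median 25.7). D2 spiny projection neuron-like nuclei were below the D1 class in 7 of 7 libraries, at 19.9 ± 2.71 against 24.3 ± 3.73, although the ranges overlapped. The cortical classes were low, with 7.58 ± 0.838 in the upper layers, 6.95 ± 0.521 in layer 6 and 6.57 in the telencephalic excitatory class. The layer 5 cluster, which also holds the nuclei that the finer clustering named hippocampal pyramidal neuron-like, had 15.98 ± 0.899. Purkinje neuron-like nuclei had the lowest mean of the named neuron classes (4.65 ± 1.93, 5 libraries). That cluster is not uniform, so the value may be partly that of other cells.

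Grik3, which encodes GluK3, differed widely between classes of the same tissue. In layer 6 corticothalamic neuron-like nuclei (777) its level was 12.1 to 17.6 UFIs per 10000 with a median of 16.2, and in upper layer neuron-like nuclei 0.0587 to 0.285 with a median of 0.0938. The ranges were apart and the means differed 112-fold. Gria3, Gria4, Grik1 and Grik4 also had ranges apart between these 2 classes. The share of all genes with ranges apart between them was not counted, so this is no trait of the families. Grik3 was among the 10 leading genes of the layer 6 cluster although it had been left out of the clustering. In the striatum, the D2 class had 7.46 to 9.47 (median 7.92) and the D1 class 0.491 to 1.67 (median 0.888). That is an 8.87-fold difference of the means, again with ranges apart in 7 of 7 libraries. Among the finer interneuron classes, somatostatin interneuron-like nuclei had 13.2 ± 1.38 and Lhx6 interneuron-like nuclei without somatostatin 3.12 ± 0.551, with ranges apart.

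Single nuclei were also compared at equal depth. Each nucleus was thinned to 3000 UFIs, which left out 3 nuclei. Grik3 then had at least 1 UFI in 97.4% of layer 6 corticothalamic neuron-like nuclei (757 of 777, exact 95% interval 96.1 to 98.4%), in 84.5% of the D2 class (81.1 to 87.5%), in 12.6% of the D1 class (10.4 to 15.1%) and in 2.47% of the upper layer class (1.47 to 3.87%). Kidney tubule-like nuclei, which should lack the gene, gave 0.208% (0.00526 to 1.153%). Grik1 was found in 80.2% of the Lhx6 class and 67.5% of the Adarb2 class, but in 1.10% of the upper layer class (0.474 to 2.15%). Kidney tubule-like nuclei gave 1.04% (0.338 to 2.41%), and the intervals overlap. Those nuclei come only from the frozen libraries with preindex, so they are no measure of background in brain nuclei. Whether the upper layer share is background was not tested. Before thinning the upper layer shares were 12.2% for Grik3 and 9.04% for Grik1, with a median of 13807.5 UFIs per nucleus. The kidney class then had 1.66% for each gene, with a median of 8765. The intervals cover counting error only.

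Grik4, the gene of GluK4, was high in several named classes that are not alike. Oligodendrocyte precursor cell-like nuclei (112), which had Pdgfra, Cspg4 and Vcan as their leading genes, had 9.88, 7.23, 8.03 and 6.23 UFIs per 10000 in 4 libraries, and dentate granule neuron-like nuclei 5.84 to 8.24 (median 6.94). Layer 6 corticothalamic neuron-like nuclei followed with 5.82 to 7.80 (median 7.03). Purkinje neuron-like nuclei, a cluster that is not uniform, had 5.26 to 6.87 (median 6.33) in 5 libraries. These classes overlapped, and although the precursor class had the highest mean it was above the dentate class in 1 of the 4 libraries that held both. Its first place was lost to the dentate class without the fresh library without preindex of replicate 2. Purkinje neuron-like nuclei took it at the finer clustering (8.45 ± 0.508) and with 20 principal components (8.52 ± 0.610). With the subunits kept in the clustering, hippocampal pyramidal neuron-like nuclei took it. In the dentate class every library with preindex (8.03, 8.24 and 7.67) was above every one without (5.84 to 6.94). Primer was not tested there, and the share of all genes apart in this way was not counted, so the gap is no result about Grik4. In layer 6 the libraries with and without preindex overlapped. D2 spiny projection neuron-like nuclei were low at 1.197 ± 0.366 and below the D1 class (1.90 ± 0.211) in 7 of 7 libraries. The finer clustering brought out a neuron-like cluster led by Ccbe1, Rnf182 and Itgbl1 (139 nuclei) that carried several hippocampal pyramidal markers but met no name. Its Grik4 level was 7.29 to 23.2 over 7 libraries with a median of 18.8, 7.15-fold above hippocampal pyramidal neuron-like nuclei (2.53 ± 0.657) with ranges apart.

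Grik5, the gene of GluK5, was highest in spiny projection neurons. Its levels ran from 2.34 to 2.97 in the D1 class (median 2.57) and from 2.11 to 3.00 in the D2 class (median 2.37) down to 1.26 ± 0.225 in thalamic and 1.06 ± 0.573 in Purkinje neuron-like nuclei. The Purkinje neuron-like cluster is not uniform and ran from 0.517 to 1.96 over 5 libraries. Dentate granule neuron-like nuclei were 1.75-fold above thalamic ones, with ranges apart. Neighbours in the order of classes mostly overlapped in their library ranges, in 184 of 198 pairs over the 9 genes and in all 22 for Grik5.

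Glia-like and vascular nuclei also carried the subunits, and they had counts of general neuron markers as well. The summed level of 8 general neuron markers was 111 to 162 UFIs per 10000 in oligodendrocyte precursor cell-like nuclei, 108 to 178 in oligodendrocyte-like nuclei, 73.7 to 270 in endothelial cell and pericyte-like nuclei and 164 to 236 in astrocyte-like nuclei. The means were 148, 149, 155 and 182 in the same order. Means of neuron-like clusters ran from 100.3 to 374. The lowest was that of the cluster led by Syt9, Ano1 and Gm29478 (33 nuclei, 1 library). The next was 173, in subcortical inhibitory neuron-like nuclei (2 libraries). The kidney class had 4.11 and 4.98, and none of the 8 markers was at 0 in any class. Whether these marker counts come from neurons was not tested, nor was the part of RNA from neurons in the glial values. In oligodendrocyte precursor cell-like nuclei, Grik4 was 223% of the level over all neuron-like nuclei and above it in 4 of 4 libraries. Grik3 there was 114% of the neuronal level, also above it in 4 of 4 libraries, while Gria1 was 48.3% of it. Thinned to equal depth, 79.5% of oligodendrocyte precursor cell-like nuclei had a Grik4 UFI (70.8 to 86.5%), against 46.2% of oligodendrocyte-like nuclei (40.8 to 51.8%).

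**Figure D3:**
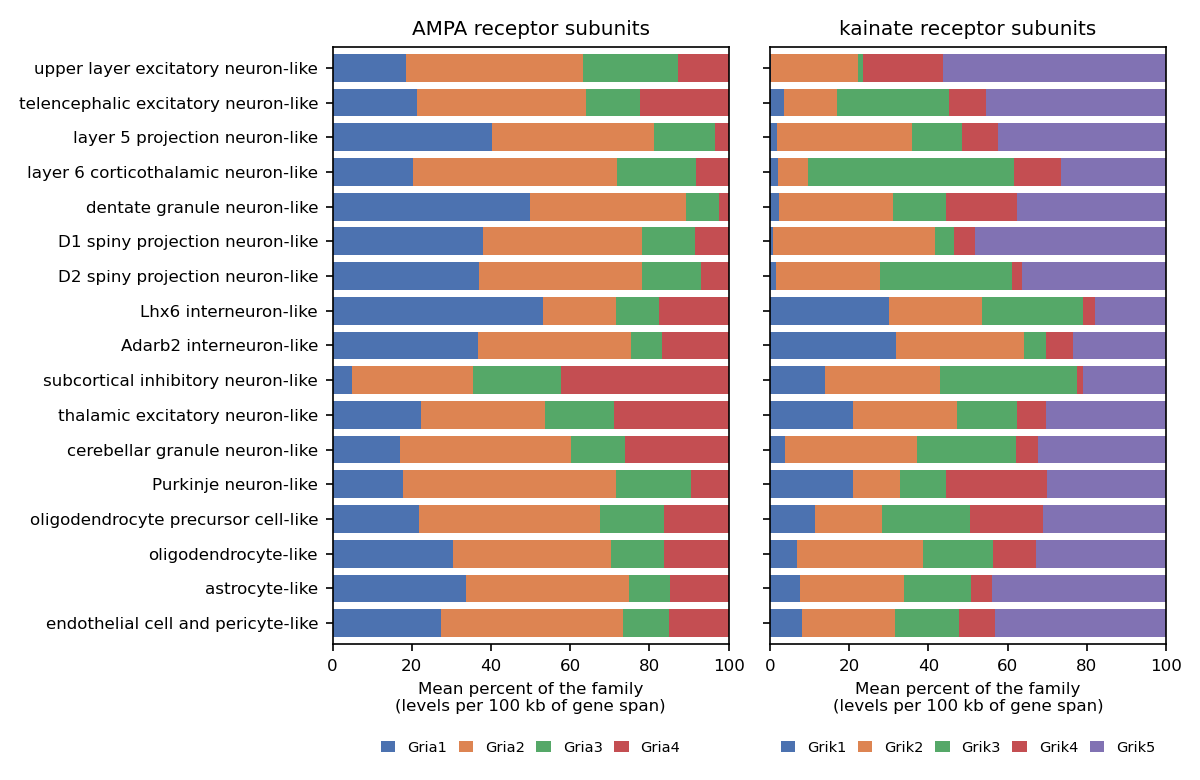
Mean share of each subunit in its family (x axis, percent of the summed levels per 100 kb of gene span) for AMPA (left) and kainate (right) receptor subunits in 17 named classes (y axis). Gria2 takes the largest part of the AMPA bar in layer 6 (51.6%) and Gria1 in Lhx6 interneuron-like nuclei (53.0%), and Grik3 takes most of the kainate bar in layer 6 (52.0%) and Grik5 in the upper layers (56.2%).

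Per length, the make-up of each family differed between classes. The shares within a class rest on the assumed proportion of counts to span, which was not tested. Gria2 made up 51.6% of AMPA subunit RNA in layer 6 corticothalamic neuron-like nuclei, 44.7% in the upper layers and 41.1% in the D2 class, but 18.4% in the Lhx6 class, where Gria1 made up 53.0%. In dentate granule neuron-like nuclei Gria1 (49.7%) and Gria2 (39.4%) left 2.37% to Gria4. In subcortical inhibitory neuron-like nuclei the largest share was that of Gria4 (42.3%) and Gria1 made up 4.80%. Among kainate subunits, Grik5 was the largest in the upper layers (56.2%), Grik3 in layer 6 (52.0%), and Grik1 and Grik2 shared the Adarb2 class (31.8% and 32.3%). The D1 class was mostly Grik5 (48.3%) and Grik2 (41.0%), whereas the D2 class also held Grik3 (33.2%, against 4.75% in D1). The summed AMPA level was highest in the Lhx6 class, 69.7 ± 8.03 UFIs per 10000, and the summed kainate level in the Adarb2 class, 49.4 ± 7.33, with 13.9 ± 1.42 in the upper layers.

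The genes whose levels followed each subunit most closely were ranked by Pearson's r of log2(CPM + 1) over 23 clusters, among 9754 genes. These clusters share their libraries, so r is a description. The kidney tubule-like cluster is among them. Its mean level of Gria2 was 0.039, against 3.01 in thalamic excitatory neuron-like nuclei, the next lowest class, while its mean level of Gria3 was 2.29. How far each r rests on the kidney tubule-like cluster was not tested. Gria1 was followed by Cacng8 (r = 0.94), the gene of the AMPA auxiliary subunit TARP γ-8, then by Scn3b (0.93) and Grm5 (0.92). Gria2 was followed by Svop (0.97), Rasgef1a (0.97) and Dclk1 (0.97), and Gria3 by Brdt (0.76), Dlg2 (0.76), which encodes the scaffold PSD-93, and Hivep2 (0.74). The nearest to Gria4 were Ptprt (0.92), A330076H08Rik (0.91) and A230057D06Rik (0.91). Among the kainate subunits, Grik1 was nearest to Slc38a1 (0.85), Podxl2 (0.85) and Nrip3 (0.83), and Grik2 to Sgip1 (0.93), Dpp6 (0.93) and Lhfpl4 (0.93). Grik3 was nearest to Lrrtm2 (0.84), Fam168a (0.82) and Mdga2 (0.80), Grik4 to Tub (0.91), Basp1 (0.90) and Sprn (0.89), and genes close to Grik5 included Abi2 (0.89) and the AMPA auxiliary gene Shisa7 (0.89).

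Auxiliary and partner genes had class patterns of their own, given here for 35 companion genes listed by role. The kainate auxiliary gene Neto1 was highest in the D2 (6.86 ± 0.806 UFIs per 10000) and D1 (6.06 ± 0.741) classes. Of the TARP genes, Cacng3 was highest in the upper layers (6.41 ± 0.429), Cacng2 in the Lhx6 class (3.41 ± 0.383), Cacng8 in the dentate class (1.83 ± 0.233) and Cacng4 in oligodendrocyte precursor cell-like nuclei (7.12 ± 1.19, 4 libraries). Shisa9, which encodes an AMPA auxiliary subunit, was highest in the dentate class (18.2 ± 1.71), and the scaffold gene Grip1 in the Adarb2 (77.03 ± 15.9) and Lhx6 (67.0 ± 5.07) classes. Adarb1, which encodes the enzyme that edits Gria2 RNA, was highest in thalamic neuron-like nuclei (9.98 ± 1.151), the named neuron class with the least Gria2.

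The study's design asks whether storage and primer alter what is measured. Counts were summed per library and fitted with edgeR across all genes, with storage and primer as terms, and a gene passed at a Benjamini-Hochberg adjusted p under 0.05. Over all nuclei, 0 of the 9 subunits passed for fresh against frozen brain, where 0.207% of 19299 genes did. At an unadjusted p under 0.05 only Grik4 was counted (log2 difference 0.18 ± 0.07 SE, unadjusted p = 0.0427, edgeR), and DESeq2 also called 0. The smallest adjusted p in this edgeR fit was 0.314, that of Grik4, whose CPM was 359, 325, 329 and 299.8 in the frozen libraries and 376, 344 and 393 in the fresh ones. Differences of the 9 genes lay between −0.14 and 0.18 on the log2 scale with a median of 0.02. Among neuron-like nuclei, 0 of 9 passed against 0.468% of 18164 genes, with differences from −0.20 (Grik1) to 0.10 (Grik3). Grik2 alone had an unadjusted p under 0.05 there (log2 difference −0.14 ± 0.05 SE, unadjusted p = 0.0307, adjusted p = 0.364, edgeR), and DESeq2 called 0. The share of all genes under that unadjusted p was not counted in either set of nuclei, so Grik4 and Grik2 are no result about the subunits. The count of subunits that passed depends on the only fresh library with preindex. Without it, Gria4 (−0.17), Grik2 (−0.23) and Grik3 (0.28) passed over all nuclei, and Grik2 (−0.23) and Grik3 (0.30) among neuron-like nuclei, all in the edgeR fit. Of all genes, 4.63% and 5.78% passed in these fits.

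More genes passed for primer. Over all nuclei, 1 of 9 subunits passed, where 15.8% of genes did. Gria1 was higher with preindex (log2 difference 0.28 ± 0.06 SE, adjusted p = 0.0186, edgeR), with 1701, 1808 and 2052 CPM with preindex and 1561, 1492, 1561 and 1531 CPM without. Every library with preindex was above every one without. Whole libraries with frozen preindex tissue include the kidney tubule-like nuclei, in which 7 subunits were near 0 and Gria3 and Grik5 were not. Without the kidney tubule-like cluster 5 of 9 passed, and without the 4 clusters that are absent from a group of libraries 6 of 9 did. Without the cerebellar clusters 0 passed. Of all genes, 19.3%, 17.3% and 12.3% passed in these 3 fits. The call was also lost without the frozen library with preindex of replicate 2 (adjusted p = 0.0833), without the fresh library without preindex of replicate 1 (0.0552) and, for Gria1 itself, without the frozen library without preindex of replicate 2 (0.0568), all by edgeR.

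Among neuron-like nuclei 6 of 9 subunits rose with preindex and none fell, against 21.2% of all genes that passed in either direction. Gria1 was 2003, 2124 and 2094 CPM with preindex and 1539, 1517, 1561 and 1528 CPM without (log2 difference 0.44 ± 0.04 SE, adjusted p = 8.49e-05, edgeR). Gria2 was 888, 893 and 902 CPM with preindex and 828, 740, 737 and 703 CPM without (0.24 ± 0.05, adjusted p = 0.00816, edgeR). For both, the groups did not overlap. Grik5 was 210, 214 and 198 CPM with preindex and 165, 174, 179 and 186 CPM without (0.24 ± 0.05, adjusted p = 0.0103, edgeR). Grik2 was 1552, 1560.0 and 1561 CPM with preindex and 1473, 1396, 1260 and 1185 CPM without (0.21 ± 0.05, adjusted p = 0.0186, edgeR). Grik3 was 481, 463 and 408 CPM with preindex and 331, 331, 389.6 and 423 CPM without (0.31 ± 0.09, adjusted p = 0.0315, edgeR), and its groups overlapped. Gria3 was 711, 744 and 737 CPM with preindex and 710.0, 573, 623 and 579 CPM without (0.23 ± 0.07, adjusted p = 0.0386, edgeR), the groups being apart by less than 1 CPM.

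**Figure D4:**
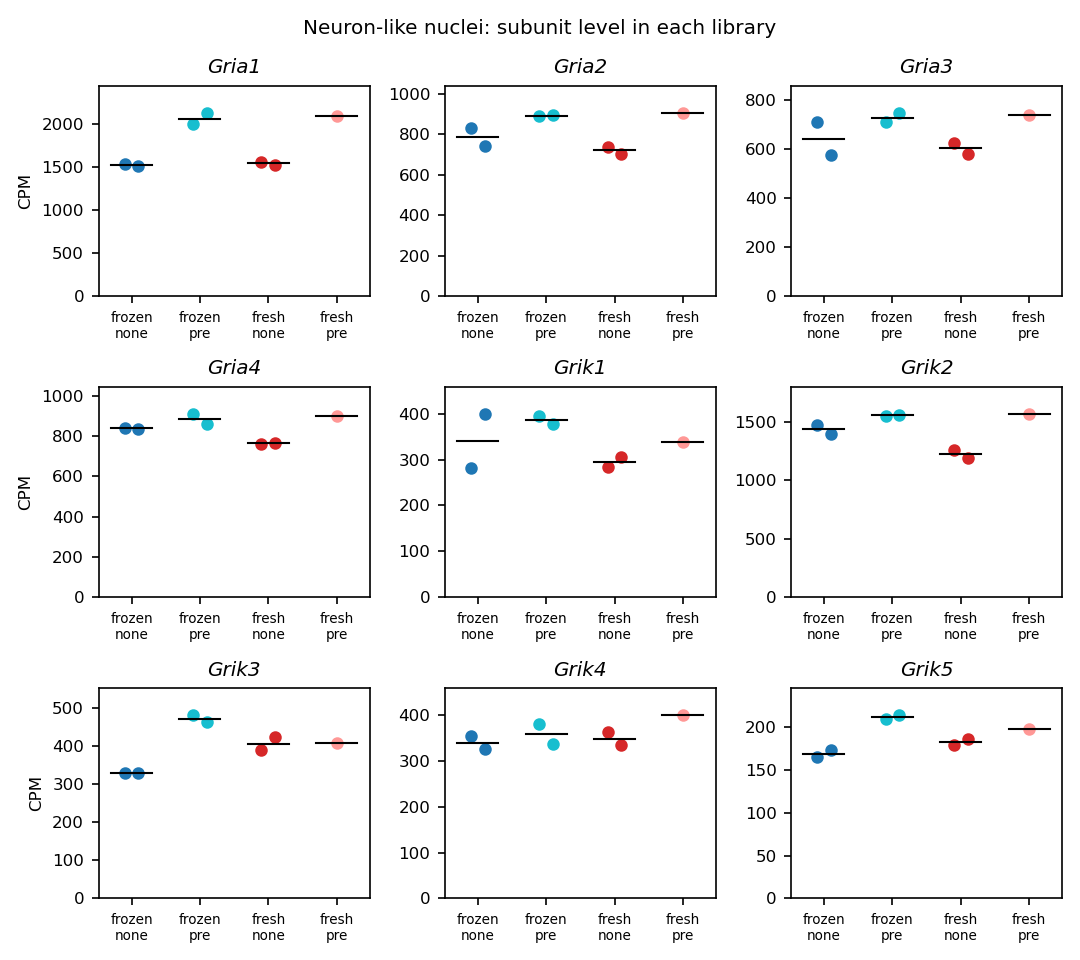
Level of each subunit in neuron-like nuclei (y axes, CPM from 0) in each library (points) of the 4 groups (x axis), with a bar at the group mean. Gria1 shows the clearest step, with 3 libraries with preindex between 2003 and 2124 CPM and 4 without between 1517 and 1561 CPM, and Grik4 has the smallest log2 difference (0.13).

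The remaining 3 did not pass. Gria4 had a log2 difference of 0.14 ± 0.05 (adjusted p = 0.0514, edgeR), Grik1 0.19 ± 0.09 (adjusted p = 0.187) and Grik4 0.13 ± 0.06 (adjusted p = 0.162). Of the 6 calls, those of Gria1 and Gria2 held under all 12 alternatives to this fit, those of Grik2 and Grik5 under 11, that of Grik3 under 7 and that of Gria3 under 5. Leaving out 1 library gave between 3 and 6 calls in edgeR. The call of Gria3 was lost without any library but the frozen one without preindex of replicate 1 (adjusted p 0.0624 to 0.118 where lost). The call of Grik3 was lost without either frozen library without preindex, without either frozen library with preindex and without the fresh library without preindex of replicate 1 (adjusted p 0.0536 to 0.125). The call of Grik2 was lost without the fresh library with preindex (adjusted p = 0.0875, edgeR) and that of Grik5 without the frozen library with preindex of replicate 2 (adjusted p = 0.0513, edgeR). The mix of neurons moves with primer as well: cerebellar granule neuron-like nuclei, where Gria1 was 6.41 ± 1.44 UFIs per 10000, made up 3.85 to 12% of nuclei in libraries without preindex and none in those with it. Their part in the neuronal result was not tested.

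Within single classes the question was asked for the 4 named classes with the most nuclei. For storage, 0 of 36 pairs of subunit and class passed in edgeR, and 0 in DESeq2. At an unadjusted p under 0.05 in edgeR there were 3, namely Gria2, Grik1 and Grik2 in telencephalic excitatory neuron-like nuclei. The share of all genes under that unadjusted p was not counted, so the 3 are no result about the subunits. All genes passed at 0.117% in telencephalic excitatory neuron-like nuclei, 0.212% in the D1 class, 0.12% in layer 6 and 0.728% in the upper layers. Without the fresh library with preindex, Grik3 in the D1 class passed (log2 difference 1.29 ± 0.26, adjusted p = 0.0382, edgeR). For primer, 3 of 36 pairs passed, all in the upper layers, where 4.05% of genes did. The shares of all genes were 2.71% in the telencephalic class, 1.53% in the D1 class and 0.699% in layer 6, with no subunit among them. In the upper layers Gria1 (log2 difference 0.33 ± 0.09, adjusted p = 0.0411, edgeR) and Grik4 (0.41 ± 0.11, adjusted p = 0.0329, edgeR) rose with preindex. Grik3 fell there by 1.26 on the log2 scale (adjusted p = 0.0246, edgeR), from a level of 177 UFIs in the class over all libraries, with 9.68, 10.2 and 6.14 CPM with preindex and 5.91, 19.2, 18.3 and 26.6 CPM without, which overlap. DESeq2 called none of the 3. The call of Gria1 held only without the frozen library without preindex of replicate 1, that of Grik4 only without the frozen library without preindex of replicate 2, and that of Grik3 without any library but the fresh one without preindex of replicate 2 and the fresh one with preindex (then −0.63 on the log2 scale), when 1 library at a time was left out.

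Primer also moved with gene span in neuron-like nuclei, which was looked at after the calls were known. Genes that rose with preindex had a median span of 96.7 kb (1992 genes with a known span) and those that fell 17.6 kb (1775 genes), against 26.0 kb for all genes. Genes were ranked by span and cut into 10 groups of nearly equal size. In group 1, the shortest genes, the median log2 difference was −0.24, and in group 10, from 138 kb upward, it was 0.14 and 42.3% of genes rose. Of the subunits, 7 are in group 10, Gria2 in group 9 and Grik5 in group 8. The median over the 9 subunits was 0.23. The part of gene span in the subunit differences was not tested. For storage the medians ran from 0.06 in group 1 to −0.02 in group 10.

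**Figure D5:**
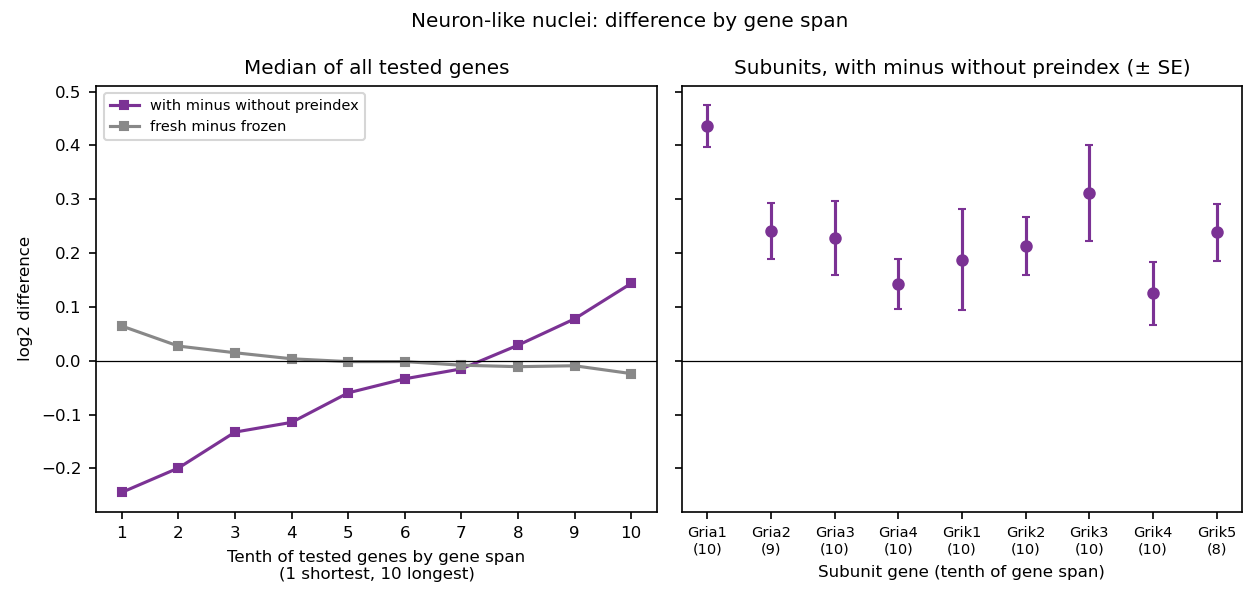
Left, median log2 difference of all tested genes in neuron-like nuclei (y axis) in 10 groups by gene span (x axis, 1 shortest, 10 longest), for preindex and for storage. Right, the log2 difference of each subunit with preindex (points, ± SE) with its span group in brackets. The medians with preindex climb from −0.24 to 0.14, and the 9 subunits sit between 0.13 and 0.44.

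Of the 35 companion genes 0 passed for storage in edgeR, over all nuclei (11 with an unadjusted p under 0.05) or among neuron-like nuclei (7 with one). The share of all genes under that unadjusted p was not counted for storage, so the 11 and 7 are no result about the list. For primer among neuron-like nuclei 12 rose and 7 fell, with a median log2 difference of 0.04 over the list. Of all 18164 genes tested, 2040 rose and 1812 fell. Of 13 AMPA auxiliary genes 6 rose and 2 fell. Shisa9 rose most (0.54 ± 0.05, 1026 ± 19.7 CPM with preindex and 711 ± 37.5 CPM without, adjusted p = 7.16e-05, edgeR), followed by Cacng3 (0.43), Gsg1l (0.43), Cacng4 (0.37), Cnih3 (0.25) and Cacng8 (0.20), and Cacng7 (−0.35) and Cnih2 (−0.28) fell. Both kainate auxiliary genes rose, Neto2 by 0.60 ± 0.07 and Neto1 by 0.53 ± 0.06. Among 8 scaffold and trafficking genes Dlg2 (0.41), Dlg1 (0.36) and Grip1 (0.31) rose. Of 5 extracellular organisers Nptx1 (−0.57), Nptxr (−0.45) and C1ql2 (−0.89) fell, and Nptx2 (0.15) and C1ql3 (−0.0038) did not pass. Of 5 assembly genes Abhd6 (0.25) rose and Frrs1l (−0.31) and Porcn (−0.26) fell. The RNA editing genes Adar (0.03) and Adarb1 (0.02) did not pass.

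A test of whether the difference by storage depends on primer rests on 1 fresh library with preindex. Over all nuclei 4 of 9 subunits passed this interaction in edgeR, where 16.4% of genes did: Gria2, Gria4 and Grik2 with positive terms and Grik3 with a negative one. Among neuron-like nuclei only Grik3 passed, where 7.21% of genes did. Its CPM there was 331 and 331 in frozen and 389.6 and 423 in fresh brain without preindex, and 481 and 463 in frozen and 408 in fresh brain with preindex. Kidney tubule-like nuclei occur in 1 of the 4 groups only, and without the 4 clusters that are absent from a group Grik3 was again the 1 subunit that passed.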

How the data were processed

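The deposited counts of the 7 brain libraries, 1 file per library with genes as rows and nuclei as columns, were whole UFI counts per gene and nucleus. The authors made them, per the labels, with cutadapt, UMI-tools, STAR, featureCounts and Scanpy on GRCm38/mm10, versions not given in the sources used here, and nuclei had been selected before deposit. The 5 species-mixing libraries were not used. Groups were taken from the titles: in 4 of 7 libraries the treatment field names another primer, while the barcode length (30 nucleotides without preindex, 40 with it) went with the titles.

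Counts were clustered in scanpy 1.11.5 (scaled to 10000, 2000 variable genes, 40 principal components, 10 neighbours, Leiden resolution 0.4). A cluster was named where at least 3 and at least 50% of the markers of a class were 2-fold above other nuclei and 1 was among the 10 leading genes; this rule was written after the clusters were seen. Scrublet marked 37 nuclei (0.33%) and had not worked, so doublets were not removed. In 7 of 21 pairs, libraries shared 2 to 10 barcodes. UFI sums per library were tested with edgeR 4.0.16 (quasi-likelihood, TMM, filterByExpr, terms storage and primer, Benjamini-Hochberg over all genes tested); DESeq2 1.42.0 was an alternative. Tested on simulated data for all nuclei by primer (18686 genes), the edgeR steps recovered 58.5% of 200 genes changed 2-fold. Of 200 genes changed 1.5-fold they recovered 29.5% by primer and 28% by storage, and smaller changes were not simulated. The 9 subunits were all named, with the 3 genes most like each, of which 1 is not reported here. The subunits, companion lists, tests and comparisons were chosen with earlier results of these data known.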

Additional observations from a re-analysis of the deposited data

Results flagged for a closer look

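Whether the difference between fresh and frozen brain was the same with both primers was tested with an interaction term in edgeR, and 5 such differences passed. Each rests on 1 fresh library with preindex, and groups of 1 or 2 libraries allow no check for a library that stands apart. Over all nuclei the term was 0.32 on the log2 scale for Gria2 (adjusted p = 0.0176), 0.38 for Gria4 (adjusted p = 0.000739), 0.39 for Grik2 (adjusted p = 0.0021) and −0.32 for Grik3 (adjusted p = 0.00608). A positive term means that the fresh minus frozen difference was larger with preindex. Kidney tubule-like nuclei were 11.7% and 10.7% of the frozen libraries with preindex, and without the 4 clusters absent from a group only Grik3 passed. Among neuron-like nuclei, which hold no kidney tubule-like nuclei, the term for Grik3 was −0.51 (adjusted p = 0.000747) and no other subunit passed.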

How the results depend on the processing

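The number of subunits past the threshold moved as follows. For storage over all nuclei it was 0, and 2 with no filter on low counts and 0 to 3 with 1 library left out; among neuron-like nuclei it was 0, and 1 with no filter and 0 to 2; in single classes it was 0, and 0 to 1. For primer over all nuclei it was 1, and 2 with DESeq2, 4 with no filter, 5 without the kidney tubule-like cluster, 0 without cerebellar clusters, 6 without clusters absent from a group (chosen after seeing the data) and 0 to 3 with 1 library left out. Among neuron-like nuclei it was 6, and 3 to 6; in single classes it was 3, and 0 with DESeq2, 9 with no filter and 0 to 4. For the interaction it was 4, and, in alternatives all chosen after seeing the data, 1 among neuron-like nuclei, 7 with no filter, 1 without clusters absent from a group and 3 to 7. Subunits whose highest named class was above the next in every library with both numbered 3 (Gria4 and Grik3 with 2 such libraries each), and 5 at resolution 1.2, 5 with 20 components and 3 to 4 with 1 library left out. The classes were ranked by their means in the same data. The share of all genes that meet this rule was not counted, so the number is no result about the subunits. Causes were not tested. No called value changed sign; of 1089 other values 103 did, and 1 of these then passed (Gria4 by primer over all nuclei without clusters absent from a group).

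Between groups, libraries with the same replicate number had deviations from their group means with correlations of −0.0242, 0.0291 and −0.0477 over 19299 genes. Whether such libraries share an animal or a preparation cannot be told from these values. With the replicate block 0 subunits passed for primer in single classes, 5 among neuron-like nuclei and 1 over all nuclei.

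Over all genes, storage calls over all nuclei were 40, and 316 with DESeq2, 1937 with no filter, 5 with the block, 0 without the primer term, 70 without the kidney tubule-like cluster, 24 without cerebellar clusters, 73 without clusters absent from a group and 4 to 840 with 1 library left out; among neuron-like nuclei 85, and 178, 792, 35 and 1 for the first 4 of these and 24 to 976. Primer calls over all nuclei were 3041, and 4787 with no filter, 1731 with the block and 1009 to 5668; among neuron-like nuclei 3852, and 2484 without the frozen library with preindex of replicate 2. In single classes storage calls were 14 in telencephalic excitatory neuron-like nuclei (204 with no filter, 8 with the block), 23 in the D1 class (14 with DESeq2, 78 with no filter), 13 in layer 6 (23 with DESeq2, 130 with no filter) and 79 in the upper layers (190 with no filter, 38 with the block). Primer calls there were 326 (797 with no filter, 200 with the block), 166 (456 with no filter), 76 (274 with no filter, 43 with the block) and 440 (243 with DESeq2, 276 with the block).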
